A study of Mus musculus with 9 samples.

Results

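The Notch receptors, ligands and target genes were taken from RNA sequencing of mouse cardiosphere-derived cells, the cells that grow out of pieces of heart tissue and pass through floating cardiospheres. The members are 10 genes of the 54532 in the deposited table, matched by gene symbol: the receptors Notch1, Notch2 and Notch3, the ligands Jag1 and Dll1, and the targets Hes1, Hey1, Hey2, Heyl and Nrarp. There were 3 libraries in each of 3 groups, all from C57BL/6 mice. Primary cells, here pECDCs as in the study's paper, came from explant culture of the heart ventricle, and from its epicardium according to the paper. They were labelled P0 and untreated. Their immortalised form, iECDCs, had received hTERT, the catalytic subunit of human telomerase, by lentivirus and were untreated at passage 30. The libraries of the SB431542 group were labelled as the immortalised cells at passage 30 after 3 days of SB431542, which blocks the kinase of the type I receptor for TGF-β. The paper's methods instead name an epithelial clone derived from pECDCs as the treated cells, and passage 3 for pECDCs. The groups follow the labels here, so a difference between treated and untreated iECDCs carries this doubt about the cells. The labels do not say whether the 3 libraries of a group were separate cultures, and the paper's methods speak of 2 biological replicates per condition, so p-values measure only the spread between these libraries.

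Notch receptors are single-pass membrane proteins that are switched on by ligands, such as Jag1 and Dll1, on a neighbouring cell. ADAM proteases and γ-secretase then cut the receptor, and its intracellular part enters the nucleus, binds Rbpj with Mastermind-like proteins and turns on target genes. Hes1, Hey1, Hey2 and Heyl encode basic helix-loop-helix repressors, and Nrarp encodes a small protein that limits the signal. In the heart, Notch signalling is known for its part in the epicardium, in valves and in the smooth muscle of coronary vessels.

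Total counts per library ranged from 16568306 to 23951392. Within the groups, the third iECDC library and the second SB431542 library stood apart from the other two by a chi-square per degree of freedom of 24.9 to 30.8 and 70.3 to 71.5, against 2.70 to 4.61 for the other pairs, so results that rest on them are also given without them. All 8 genes of the mesenchymal list were detected, with summed FPKM (fragments counted, scaled to gene length and library depth) of 711 to 1319 per library. The endothelial list, whose cells are a main site of Notch ligands in vessels, summed to 0.0834 to 0.181 FPKM, with 6 to 8 of its 8 genes at 3 counts or fewer and Tie1 and Cldn5 at 0 in every library. The haematopoietic list summed to 4.14 to 8.27 FPKM, most of it Csf1r, and the cardiomyocyte list to 0.328 to 2.28 FPKM. The epicardial and epithelial list summed to 19.5 to 20.5 FPKM in pECDCs, 29.4 to 32.0 in iECDCs and 26.2 to 41.2 in treated cells, and most of each sum was the keratin gene Krt19. Of the 8 genes, 4 were tested between treated cells and iECDCs and 3 were called higher, against 16.0% of all genes tested. These were the epicardial genes Upk3b, Tcf21 and Wt1 (edgeR adjusted p = 0.000912, 0.00565 and 0.00615). Krt19 was not called, with a log2 difference of -0.09 (adjusted p = 0.754). Msln, Krt8, Krt18 and Cdh1 did not pass the filter on low counts, and the last 3 of these had at most 2 reads in any treated library. Upk3b was at 0.056 to 0.166 FPKM in iECDCs and 1.16 to 1.36 in treated cells, Tcf21 at 0.388 to 0.590 and 1.34 to 1.58, and Wt1 at 0 to 0.020 and 0.107 to 0.396. The part of these marker genes in the differences of Notch members in treated cells was not tested.

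The readout of the inhibitor was checked first. The TGF-β response list of 8 genes summed to 1767 to 1814 FPKM in pECDCs, to 2262 to 2715 in iECDCs, and to 171, 401 and 182 in treated replicates 1, 2 and 3. Of these 8 genes, 7 fell and 1, Tgfbi, rose in treated iECDCs relative to iECDCs. The mural list, which is led by the smooth muscle actin gene Acta2, summed to 721 to 744 FPKM in pECDCs and to 817, 853 and 1922 in iECDCs. In treated replicates 1, 2 and 3 it summed to 140, 331 and 140 FPKM. The second treated library thus kept the highest level of both lists in its group, and the third iECDC library had the highest in its own. Mural sums stood mostly for Acta2, which averaged 728, 1186 and 199 FPKM in pECDCs, iECDCs and treated cells. From 2 to 4 of the 8 mural genes per library were at 3 counts or fewer. In iECDCs relative to pECDCs, Myh11 rose by 2.05 on the log2 scale and Cspg4 fell by 2.47.

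Of the 10 members, 5 were expressed well enough to be tested, namely Notch1, Notch2, Notch3, Jag1 and Hes1. The other 5, Dll1, Hey1, Hey2, Heyl and Nrarp, had at most 14 reads in any library and did not pass the filter on low counts in any comparison. Per length, the order of the group means was the same in pECDCs and in iECDCs, with Hes1 above Notch2, then Jag1, Notch3 and Notch1. In pECDCs these means were 17.7 ± 0.362 FPKM for Hes1, 11.6 ± 0.492 for Notch2, 5.33 ± 0.130 for Jag1, 3.73 ± 0.156 for Notch3 and 1.44 ± 0.137 for Notch1 (SD, n = 3), and no neighbours in this order overlapped. In treated cells the order was Notch2, Notch3, Jag1, Hes1 and Notch1, and the libraries of Jag1 (1.33 to 3.33 FPKM), Hes1 (0.896 to 4.64 FPKM) and Notch1 (1.73 to 2.03 FPKM) overlapped. Those of Hes1 also overlapped with those of Notch3 (4.47 to 6.56 FPKM).

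**Figure D1:**
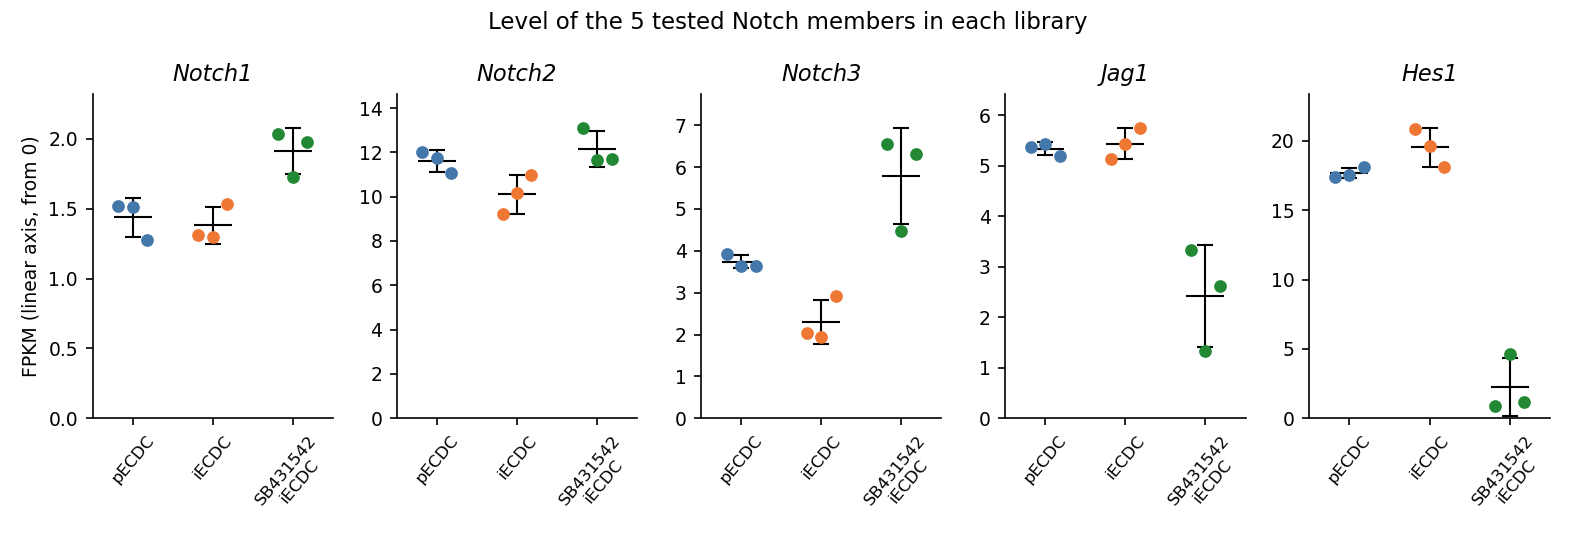
FPKM of Notch1, Notch2, Notch3, Jag1 and Hes1 in each library (points, replicates 1 to 3 from left to right) with the group mean and SD (bars) in 3 libraries per group, on linear axes from 0. Hes1 lies between 17.4 and 20.8 FPKM in the 6 libraries of pECDCs and iECDCs and at or below 4.64 in treated cells, whereas Notch3 is lowest in iECDCs and highest in treated cells.

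The stretches before the start of 3 members are shown for what they share or lack. Notch3 was the member receptor with the largest change, Jag1 the ligand that changed, and Hey2 the one member, of 7 with an entry, whose promoter holds the core letters of the site bound by Rbpj. RefSeq promoter entries (GRCm38.p6, each 300 bases, 250 before and 50 after the start) were matched for 7 members by symbol, in 8 entries. Hes1, Hey1 and Heyl had no entry, so their promoters were not searched for the site. Printed bases lie before both the RefSeq start and the gene start of the deposited table, except that the Hey2 stretch runs on to the end of the second match. Capitals mark GTGGGAA or its reverse complement TTCCCAC.
Notch3, chr17:32166891-32167140, minus strand: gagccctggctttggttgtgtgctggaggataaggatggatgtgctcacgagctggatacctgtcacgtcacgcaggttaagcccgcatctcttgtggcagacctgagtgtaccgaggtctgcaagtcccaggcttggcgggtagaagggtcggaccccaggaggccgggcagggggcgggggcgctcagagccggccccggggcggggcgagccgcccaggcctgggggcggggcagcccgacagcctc
Jag1, chr2:137116645-137116770, minus strand: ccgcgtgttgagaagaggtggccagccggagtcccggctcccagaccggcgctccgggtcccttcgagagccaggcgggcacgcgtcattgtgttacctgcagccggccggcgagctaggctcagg
Hey2, chr10:30842781-30843033, minus strand: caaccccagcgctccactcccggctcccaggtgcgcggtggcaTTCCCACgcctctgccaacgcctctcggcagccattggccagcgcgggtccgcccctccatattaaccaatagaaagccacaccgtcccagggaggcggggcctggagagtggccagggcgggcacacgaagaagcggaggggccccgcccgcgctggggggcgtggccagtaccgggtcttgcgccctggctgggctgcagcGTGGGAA
In Hey2 the letters TTCCCAC start at position -207 and GTGGGAA at position -4 relative to the RefSeq start. Of the 32851 promoters of this length, 2097 (6.38%) held the 7 letters on either strand and 84 (0.26%) held them at 2 or more places. Of the 8 member entries, 1 held them. The match describes letters only and says nothing of binding in these cells.

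Notch3, a receptor best known from vascular smooth muscle, was the one of the 3 member receptors that was called in every comparison. The gene lies at chr17:32120820-32166880 on the minus strand in the deposited table, the one member locus whose coordinates differ from GENCODE M21. Its FPKM was 3.91, 3.64 and 3.65 in pECDC replicates 1, 2 and 3. It was 2.04, 1.95 and 2.91 in the iECDC replicates and 6.56, 4.47 and 6.32 in the treated replicates. The groups did not overlap, and the third iECDC library was the nearest to pECDCs. Relative to pECDCs, Notch3 fell by 0.72 on the log2 scale in iECDCs (SE 0.14, 95% CI -1.03 to -0.40, edgeR quasi-likelihood test, adjusted p = 0.00873), which is 1.65-fold lower. Without the third iECDC library it fell by 0.91 (adjusted p = 3.02e-07). Relative to iECDCs, Notch3 rose by 1.34 in treated cells (SE 0.20, adjusted p = 0.00334), which is 2.54-fold higher. The change was 1.50 without the second treated library and 1.53 without the third iECDC library. Relative to pECDCs, it rose by 0.64 in treated cells (SE 0.15, adjusted p = 0.0168). That last call was lost without any 1 of the 3 pECDC libraries or without treated replicate 1 or 3 (adjusted p = 0.0554 to 0.0704), and was 0.79 without treated replicate 2. The gene Gm17276 lies over Notch3 on the opposite strand, and whether reads were counted by strand is not given in the sources used here. In bulk RNA, fewer cells of a type and less RNA per cell cannot be told apart.

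Notch2 had the highest level of the 3 receptors and was called in no comparison. It lies at chr3:98013527-98150361 on the plus strand, overlapped by Gm42819 and Gm42820 on the same strand. Its FPKM was 12.0, 11.7 and 11.1 in pECDCs, 9.21, 10.2 and 10.96 in iECDCs and 13.1, 11.7 and 11.7 in treated cells. The iECDC libraries were below those of both other groups, and treated cells overlapped with pECDCs. The log2 difference between iECDCs and pECDCs was -0.21 (95% CI -0.38 to -0.04, adjusted p = 0.0861), and it was -0.27 without the third iECDC library (adjusted p = 0.000999). The difference between treated cells and iECDCs was 0.28 (95% CI 0.03 to 0.53, adjusted p = 0.0867), and it passed the threshold without the second treated library (0.30, adjusted p = 0.036). Between treated cells and pECDCs it was 0.08 (95% CI -0.11 to 0.26, adjusted p = 0.479). These Notch2 values are all edgeR quasi-likelihood estimates.

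Notch1, the lowest of the 3, was higher in treated cells. It lies at chr2:26457903-26516663 on the minus strand, overlapped by 0610009E02Rik and Gm13568 on the opposite strand and by Mir6996 on the same strand. Its FPKM was 1.52, 1.51 and 1.28 in pECDCs, 1.31, 1.30 and 1.54 in iECDCs and 2.03, 1.73 and 1.98 in treated cells. The pECDC and iECDC libraries overlapped, and every treated library lay above both. The edgeR log2 difference was -0.07 between iECDCs and pECDCs (95% CI -0.31 to 0.17, adjusted p = 0.672). Notch1 rose by 0.48 in treated cells relative to iECDCs (SE 0.13, adjusted p = 0.0249) and by 0.42 relative to pECDCs (SE 0.11, adjusted p = 0.0248). The first of these calls was lost without iECDC replicate 1 or 2 or treated replicate 1 or 3 (adjusted p = 0.0967 to 0.102). The second was lost without any 1 of the pECDC libraries or without treated replicate 1 or 3 (adjusted p = 0.0651 to 0.0951). Both calls also missed the threshold with limma on log2(FPKM + 0.1) (adjusted p = 0.059 and 0.0512).

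Because the receptors moved unequally, their shares of the summed FPKM of Notch1, Notch2 and Notch3 differed by group. Notch2 made up 69.2% ± 0.321 of the sum in pECDCs, 73.4% ± 2.34 in iECDCs and 61.4% ± 3.50 in treated cells (SD, n = 3). Notch3 made up 22.3% ± 0.644, 16.6% ± 2.19 and 29.0% ± 3.46, respectively, and Notch1 at most 10.4% in any library. The ratio of Notch2 to Notch3 FPKM was 3.11 ± 0.101 in pECDCs, 4.50 ± 0.724 in iECDCs and 2.15 ± 0.401 in treated cells, without overlap. The summed FPKM of the 3 receptors was 16.8 ± 0.740, 13.8 ± 1.46 and 19.9 ± 1.91.

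**Figure D2:**
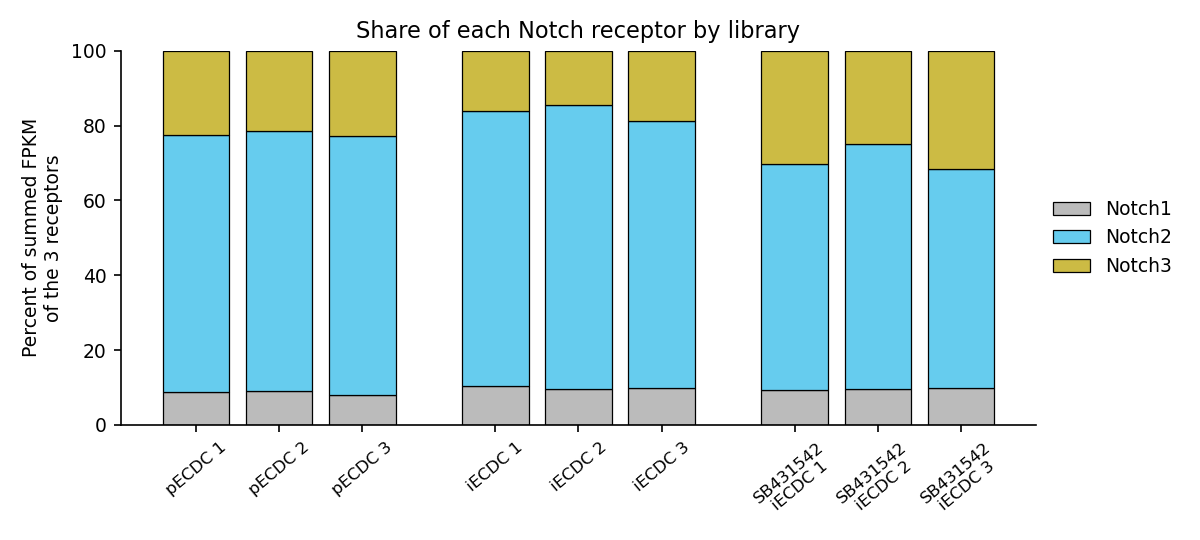
Percent of the summed FPKM of Notch1, Notch2 and Notch3 taken by each receptor (stacked bars from 0 to the whole) in each of the 9 libraries. Notch3 takes 21.6% to 22.8% in pECDCs, 14.5% to 18.9% in iECDCs and 25.0% to 31.6% in treated cells.

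Jag1, the higher of the member ligands, was lower in treated cells and did not differ detectably between pECDCs and iECDCs. It lies at chr2:137081456-137116644 on the minus strand, with no overlapping gene. Its FPKM was 5.37, 5.44 and 5.19 in pECDCs, 5.13, 5.44 and 5.74 in iECDCs and 3.33, 1.33 and 2.61 in treated cells. Every treated library lay below the others, and the second treated library was the lowest. The log2 difference between iECDCs and pECDCs was 0.01 (95% CI -0.15 to 0.17, edgeR adjusted p = 0.929), with a sign that changed under other settings. Relative to iECDCs, Jag1 fell by 1.16 in treated cells (SE 0.29, edgeR adjusted p = 0.0194), which is 2.23-fold lower. Without the second treated library it fell by 0.86 (adjusted p = 0.000602), and without any 1 of the iECDC libraries the call was lost (adjusted p = 0.0528 to 0.0604). Relative to pECDCs, Jag1 fell by 1.13 (SE 0.29, adjusted p = 0.0229). That call was lost without any 1 of the pECDC libraries or without treated replicate 3 (adjusted p = 0.0587 to 0.0733).

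Dll1, the other ligand, was near the limit of detection. It had 2, 1 and 4 reads in pECDCs, 10, 0 and 4 in iECDCs and 3, 14 and 4 in treated cells. With no filter on low counts edgeR gave an adjusted p of 0.414 between iECDCs and pECDCs and of 0.694 between treated cells and iECDCs, whose libraries overlapped. Between treated cells and pECDCs it was 0.129, with CPM of at least 0.176 in treated cells and at most 0.175 in pECDCs (exact permutation test, two-sided, p = 0.1, the smallest possible). The gene A930024N18Rik lies over Dll1 on the opposite strand.

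Hes1, a repressor and a direct target of Notch, showed the largest change of the 5 tested members in treated cells. It lies at chr16:30064384-30067796 on the plus strand, with no overlapping gene. Its FPKM was 17.4, 17.6 and 18.1 in pECDCs, 20.8, 19.6 and 18.1 in iECDCs and 0.896, 4.64 and 1.195 in treated cells, from 32, 199 and 44 reads. The treated libraries lay far below the rest. The second treated library, which also had the highest sums of the TGF-β response and mural lists in its group, kept the most Hes1. Relative to iECDCs, Hes1 fell by 3.08 on the log2 scale in treated cells (SE 0.51, 95% CI -4.26 to -1.91, edgeR adjusted p = 0.00484), which is 8.48-fold lower. Without the second treated library it fell by 4.21 (adjusted p = 2.57e-07). Relative to pECDCs it fell by 2.94 (SE 0.52, adjusted p = 0.00602), and by 4.06 without that library. Between iECDCs and pECDCs the difference was 0.13 (95% CI -0.04 to 0.30, adjusted p = 0.270), and without the third iECDC library it passed the threshold at 0.19 (adjusted p = 0.0255). The part of the TGF-β response and mural lists in the fall of Hes1 and Jag1 was not tested.

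The other targets were scarcely detected in any group. Hey2, a repressor known from the heart ventricle, had 0 reads in all pECDC libraries, 4, 7 and 5 in iECDCs and 1, 3 and 2 in treated cells. Taking 3 counts per library as the floor in pECDCs, the mean CPM of Hey2 in iECDCs was 2.24-fold the mean of that floor. This ratio leaves out the counting error of the few iECDC reads. An exact permutation test of its CPM, two-sided, gave p = 0.1, the smallest that 3 libraries against 3 allow, and edgeR with no filter on low counts gave an adjusted p of 0.00151. Hey1 had 0, 1 and 0 reads in pECDCs, 1, 2 and 2 in iECDCs and 0, 2 and 0 in treated cells. Heyl had 2 reads in the third iECDC library and 0 in the other libraries. Nrarp had 1 and 2 reads in treated replicates 2 and 3 and 0 in the rest. Every library of Hey1, Heyl and Nrarp was at or under the floor of 3 counts, so no fold was computed for them. Floors cover counting error only.

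**Figure D3:**
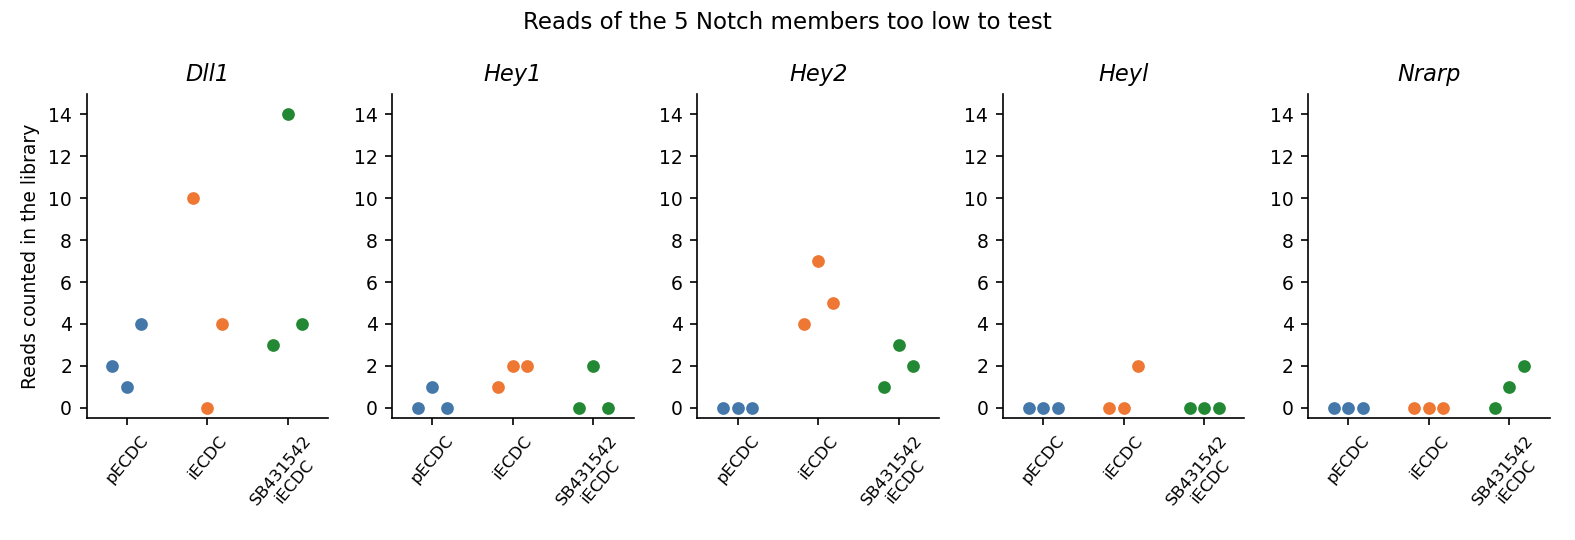
Reads counted per library for Dll1, Hey1, Hey2, Heyl and Nrarp (points, replicates 1 to 3 from left to right; the vertical axis starts just below 0). Hey2 has 0 reads in the 3 pECDC libraries and 4 to 7 in iECDCs, and no library of Hey1, Heyl or Nrarp exceeds 2 reads.

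Over the 5 tested members, 1 was called in iECDCs relative to pECDCs at an adjusted p under 0.05, Notch3, which was lower. Of all 13752 genes tested there, 16.4% were called. Without the third iECDC library Notch2 and Hes1 were called too, making 3, against 31.7% of all genes tested in that fit. In treated cells relative to iECDCs, 4 of the 5 were called, with Notch1 and Notch3 higher and Jag1 and Hes1 lower, against 30.0% of 13559 genes. Relative to pECDCs, the same 4 were called in the same directions, against 34.8% of 14015 genes. The libraries of 2 of the 5, Notch2 and Notch3, did not overlap between iECDCs and pECDCs, against 39.6% of genes tested. All 5 did not overlap between treated cells and iECDCs, against 46.5%, and all but Notch2 between treated cells and pECDCs, against 51.5%. The comparisons share libraries, so they are not independent of each other. With so few members, these counts describe them and single out nothing.

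**Figure D4:**
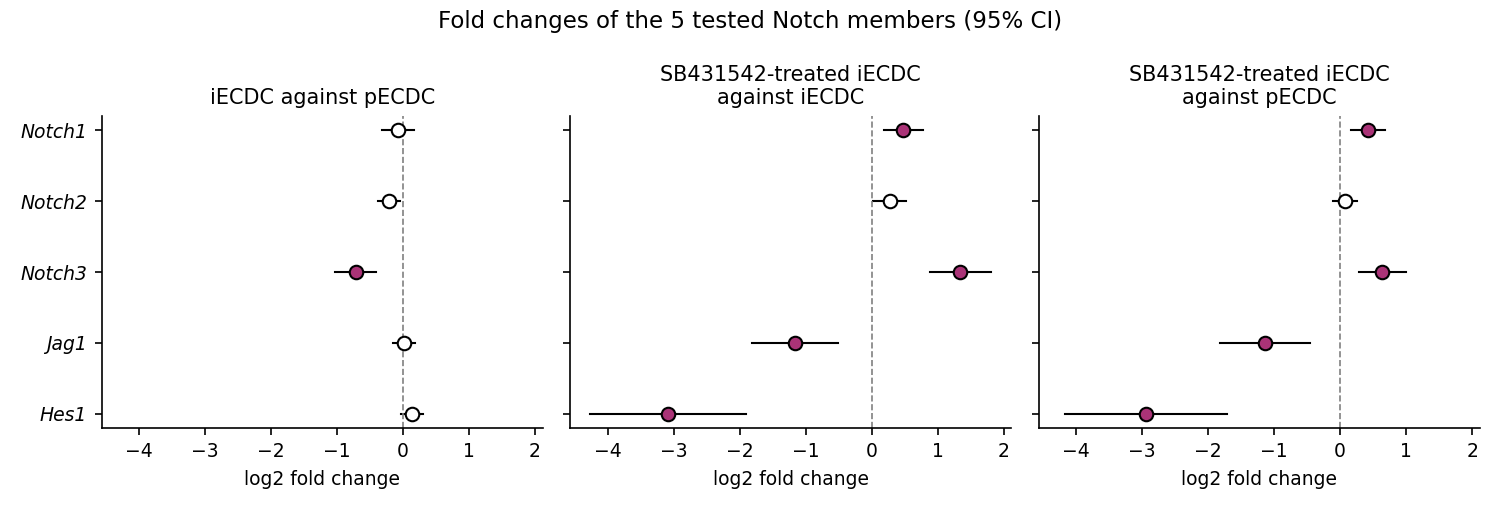
Log2 fold changes of Notch1, Notch2, Notch3, Jag1 and Hes1 from edgeR with 95% CI (lines) in the 3 comparisons, with filled points at an adjusted p under 0.05. Receptors lie at or above 0 and Jag1 and Hes1 below 0 in both comparisons of treated cells, from 1.34 for Notch3 to -3.08 for Hes1.

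Genes with the profile most like that of a member were sought for the members whose group means spanned at least 1 on the log2 scale, among 7281 genes with a mean of at least 5 FPKM. Likeness was the root mean square difference of centred log2 CPM over the 9 libraries. Nearest to Notch3 were Mxd4 (0.134) and Il6st (0.155). Nearest to Jag1 were Papss2 (0.176) and Kcnj15 (0.239). Nearest to Hes1 were Fgd3 (0.136) and Pdlim1 (0.249). The 9 libraries fall into 3 groups, and any gene with the same group means would rank high.

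Among 55 other genes of the Notch pathway, 46 were tested in each comparison. In iECDCs relative to pECDCs, 2 rose and 9 fell (median log2 difference -0.08 over the 46, and 0.00 over all genes tested). In treated cells relative to iECDCs, 11 rose and 3 fell (median 0.15). Relative to pECDCs, 13 rose and 6 fell (median 0.12). The shares of all genes tested that were called higher and lower were 7.21% and 9.21%, 16.0% and 14.0%, and 17.9% and 17.0% in these comparisons. Without the third iECDC library 22 of the 46 were called between iECDCs and pECDCs, against 31.7% of all genes tested in that fit. Without the second treated library 26 were called relative to iECDCs and 36 relative to pECDCs, against 50.2% and 64.1%. With all 9 libraries in the fit, 4, 22 and 21 were called in the 3 comparisons, against 4.72%, 41.2% and 34.8%. That fit ended the calls of Lfng, Dtx3l, Cir1, Notch4, Adam10 and Adam17 between iECDCs and pECDCs given next (adjusted p = 0.139 to 0.299).

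The fourth receptor was low, and the other ligands differed in level. Notch4 was at 0.757 ± 0.043 FPKM in pECDCs, 1.10 ± 0.097 in iECDCs and 0.302 ± 0.084 in treated cells (SD, n = 3). It fell by 1.84 in treated cells relative to iECDCs (edgeR adjusted p = 0.00194), the opposite direction to Notch1 and Notch3. It rose by 0.52 in iECDCs relative to pECDCs (adjusted p = 0.0201), a call that was lost without any 1 of the pECDC libraries or without iECDC replicate 2 (adjusted p = 0.0606 to 0.0996). Jag2, Dll3 and Dll4 did not pass the filter. Dlk2, a Delta-like protein without the domain that activates Notch, was higher than Jag1, at 8.18 ± 0.028 FPKM in pECDCs, 8.56 ± 0.957 in iECDCs and 3.94 ± 2.71 in treated cells. It was not called, with a log2 difference of -1.10 between treated cells and iECDCs (adjusted p = 0.0674), and treated replicate 2 kept 7.07 FPKM. Dlk1 stayed under 1 FPKM, with log2 differences of -1.12 between iECDCs and pECDCs and 1.61 between treated cells and iECDCs (adjusted p = 0.019 and 0.00644). The first of these was lost without pECDC replicate 1 or 2 or iECDC replicate 1 or 2 (adjusted p = 0.059 to 0.0849). Of the glycosylation genes, Lfng, a fringe enzyme that adds sugars to Notch, rose by 0.75 in iECDCs (adjusted p = 0.024), and this call was lost without any 1 of the pECDC libraries (adjusted p = 0.0817 to 0.0958).

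Few enzymes that cut the receptor were called. Of 9 proteases, 2 were called in iECDCs relative to pECDCs, Adam10 at -0.22 and Adam17 at -0.26 (edgeR adjusted p = 0.0299 and 0.041), against 16.4% of all genes, and 0 in either comparison of treated cells, against 30.0% and 34.8%. There, DESeq2 called 0 as well, and an unadjusted edgeR p under 0.05 was given to 1 relative to iECDCs (Adam17) and to 2 relative to pECDCs (Aph1a and Psen2). The log2 difference of Adam17 between treated cells and iECDCs was 0.44 (adjusted p = 0.0601), with libraries that did not overlap. Both calls were lost without any 1 of the pECDC libraries or without iECDC replicate 2, and Adam10 also without iECDC replicate 1 (adjusted p = 0.0504 to 0.173). Adam17 was also lost with limma on log2 FPKM (adjusted p = 0.0694 and 0.0707). The γ-secretase genes Psen2, Ncstn, Aph1a, Aph1b and Psenen passed the adjusted threshold in none of the 3 comparisons by edgeR. Their log2 differences between treated cells and iECDCs ran from 0.02 for Psenen to 0.47 for Psen2 (adjusted p = 0.202).

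Genes of receptor turnover and ligand endocytosis held the largest rise in the pathway. Dtx4, a Deltex-family ubiquitin ligase that acts on Notch, was at 3.81, 4.03 and 3.39 FPKM in pECDCs, 2.97, 3.29 and 3.71 in iECDCs and 30.9, 14.7 and 28.7 in treated cells. It rose by 2.91 relative to iECDCs (SE 0.28, edgeR adjusted p = 0.00072) and by 2.74 relative to pECDCs (adjusted p = 0.000931). The second treated library was again the one nearest to the untreated cells. Neurl1a, a ligase of the Neuralized family that acts on ligands, rose by 1.79 relative to iECDCs, and Mib2, a Mind bomb ligase, by 0.82. Both were lost without iECDC replicate 1 or 2 (adjusted p = 0.0532 to 0.0617). In iECDCs relative to pECDCs, Dtx3l fell by 0.63 (adjusted p = 0.00744) and the ligase Itch by 0.38 (adjusted p = 0.00525).

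In the nucleus, Rbpj itself differed little. Its log2 difference was 0.20 between iECDCs and pECDCs (edgeR adjusted p = 0.0911), 0.10 between treated cells and iECDCs (adjusted p = 0.522) and 0.31 between treated cells and pECDCs (adjusted p = 0.0119). Of 8 nuclear activators, 4 rose in treated cells relative to iECDCs, against 16.0% of all genes called higher, and the other 4 were not called. Maml3, a Mastermind-like coactivator, rose by 1.63 (adjusted p = 0.00119), from 0.617 ± 0.124 to 1.89 ± 0.214 FPKM (SD, n = 3). In pECDCs it was at 0.999 ± 0.078 FPKM, and it fell by 0.71 in iECDCs relative to them (edgeR adjusted p = 0.0131). Its rise in treated cells relative to pECDCs was 0.53 to 1.02 over the 15 alternative settings. Relative to iECDCs, Maml2 rose by 0.60, Kat2b by 0.80 and Ep300 by 0.45 in treated cells. Maml2 and Kat2b were lost without iECDC replicate 1 or 2 or treated replicate 1 or 3, and Ep300 without iECDC replicate 1 or treated replicate 1 (adjusted p = 0.0533 to 0.108).

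Corepressors of the Groucho family were split in treated cells relative to iECDCs. Tle2 and Tle3 rose by 1.31 and 0.91 (edgeR adjusted p = 0.00686 and 0.00318). Tle1 fell by 0.83 (adjusted p = 0.0219), a call lost without any 1 library other than treated replicate 2 (adjusted p = 0.0566 to 0.0829). In iECDCs relative to pECDCs, Tle3 fell by 0.53 (adjusted p = 0.000386) and Cir1 by 0.57, the latter lost without pECDC replicate 2 or 3 or iECDC replicate 2 (adjusted p = 0.0725 to 0.116). Of 5 other Hes genes, only Hes6 passed the filter. It rose by 0.47 in treated cells relative to iECDCs (adjusted p = 0.0488), which was lost without any 1 library other than treated replicate 2 (adjusted p = 0.0547 to 0.166), by DESeq2 (0.0585) and when low counts were kept (0.074), and by 0.65 relative to pECDCs (adjusted p = 0.00351). Hes6 thus lay above and Hes1 below the untreated cells.

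**Figure D5:**
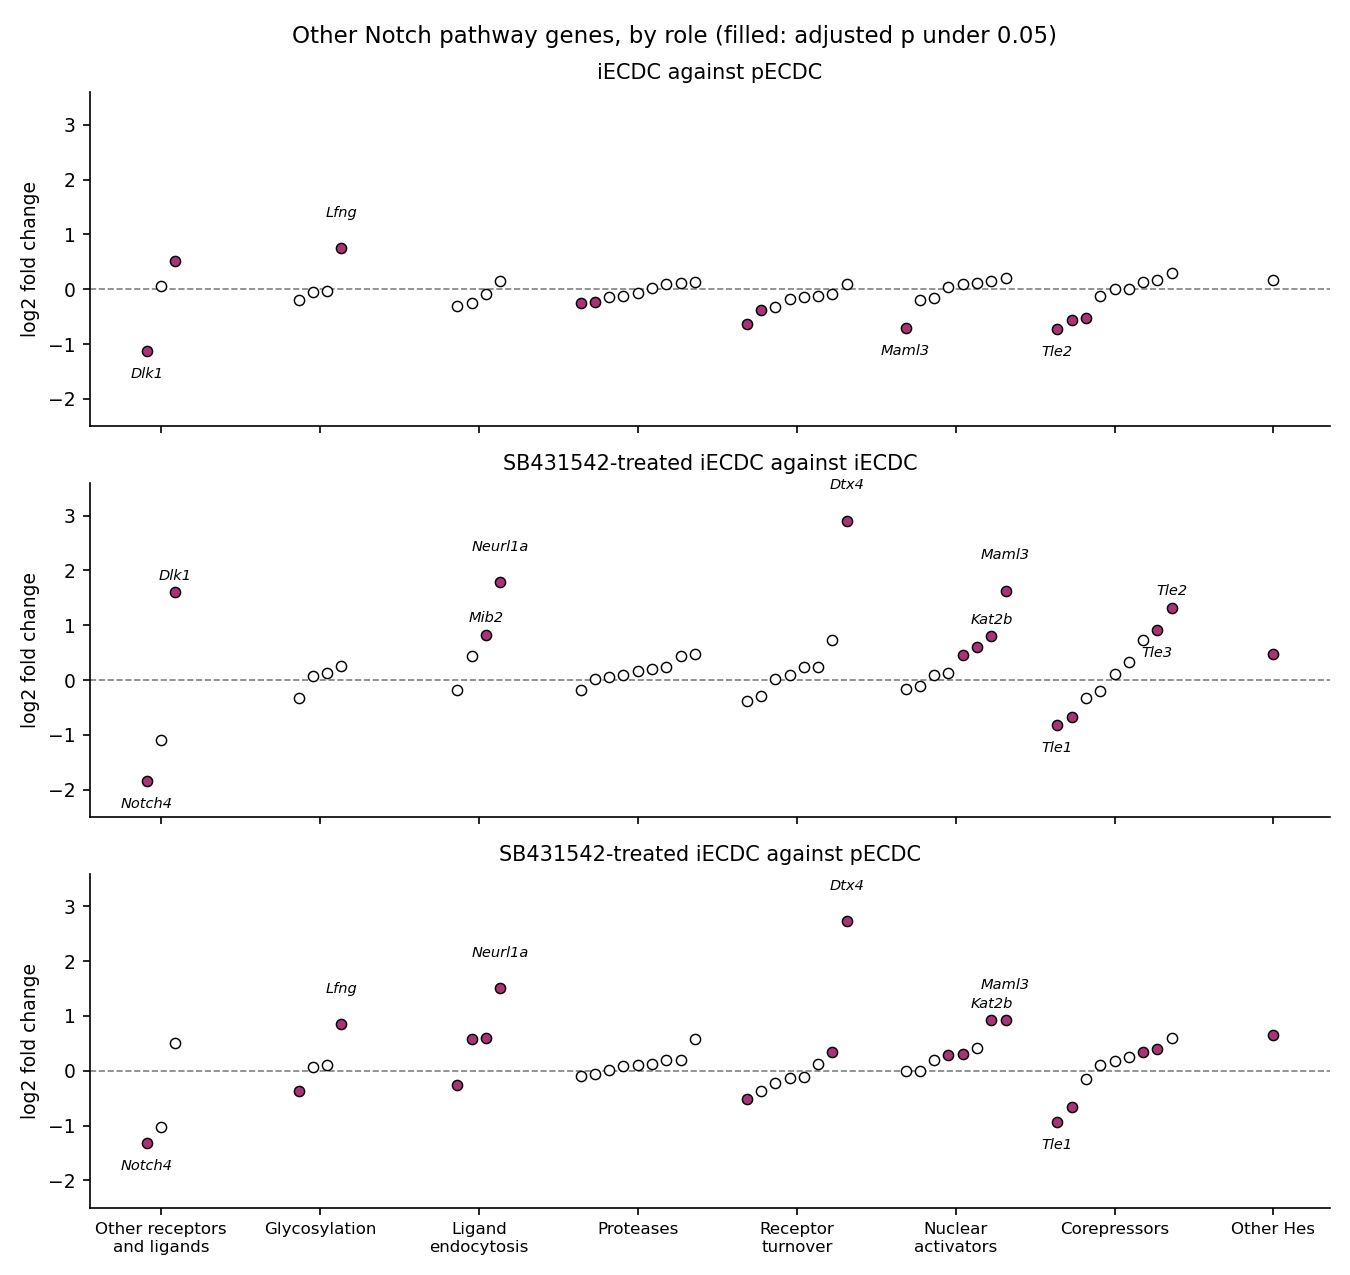
Log2 fold changes from edgeR of the 46 tested pathway genes other than the members, by role (columns), in the 3 comparisons (panels), with filled points at an adjusted p under 0.05 and names for called genes beyond 0.7 in size. In treated cells relative to iECDCs, Dtx4 is highest at 2.91 and Notch4 lowest at -1.84, and no protease is called.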

How the data were processed

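RNA of the 3 groups was sequenced by the authors, who deposited raw read counts and FPKM values per gene in 1 table. The submitters' processing notes name Bowtie2 2.0.6, TopHat2 2.0.9 and mm9. The coordinates of 53462 of 54532 genes, Notch3 not among them, equal those of GENCODE M21 on GRCm38, so they are given on GRCm38. The counting program is not given in the sources used here. In each library 10931 to 11715 genes were checked, and their deposited FPKM equalled count over length and a library constant within 1%, except for 1 gene in pECDC replicate 3. Columns of the authors' own fold changes and p-values were not used.

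The tests on counts used edgeR 4.0.16 under R 4.3.3 (TMM, filterByExpr with minimum count 10 and minimum total 15, quasi-likelihood test) with only the 6 libraries compared, and p-values were adjusted by Benjamini-Hochberg over all genes tested. The call threshold was an adjusted p under 0.05. The edgeR and DESeq2 tests were also run on counts simulated from the means and dispersions of these data. That simulation held no library set apart from its group, unlike these data. Alternatives used DESeq2 1.42.0, RLE or upper-quartile scaling, no filter, a filter of 10 counts in each library, all 9 libraries, a replicate block, each library left out, and limma 3.58.1 on log2(FPKM + 1) or log2(FPKM + 0.1). Total counts per library were 16568306 to 23951392.

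Members and lists (Notch pathway by role, cell type markers, TGF-β response) were chosen with earlier results of these data known. Named were all members, up to 15 other pathway genes per comparison with the largest change among those called with a mean of at least 1 FPKM in the higher group, list genes, and the 2 genes nearest in profile to a member. Genes cited as not called, and Rbpj, were named from the lists. Dlk1, Dlk2 and the difference of Maml3 between iECDCs and pECDCs were named after their values were seen. Values of a few listed genes are left out.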

Additional observations from a re-analysis of the deposited data

How the results depend on the processing

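Over 51 single-gene results, 765 alternative values were computed, of which 630 kept direction and side of the threshold, 126 lost the call, 5 gained it and 4 changed sign. The 4 were all Jag1 between iECDCs and pECDCs, with a log2 difference of -0.0062 under upper-quartile scaling, -0.0028 with no filter, -0.0036 without pECDC replicate 3 and -0.0245 without iECDC replicate 3 (-0.0245 to 0.0549 over the 6 libraries left out in turn). Notch3 between iECDCs and pECDCs, Notch3 and Hes1 between treated cells and iECDCs, and Hes1 between treated cells and pECDCs kept their calls in all 15 alternatives each. With all 9 libraries in the fit, 671 genes (31.0% of them higher, against 43.9% of the 2258) and 4 pathway genes were called between iECDCs and pECDCs, and 22 pathway genes between treated cells and iECDCs, where 41.2% of all genes were called. With no filter on low counts, 3 members were called between iECDCs and pECDCs, Notch3, Notch2 and Hey2, against 12.3% of 25105 genes. Leaving out 1 library moved the calls between iECDCs and pECDCs to 1036 to 4467 genes, 1 to 3 members and 4 to 22 pathway genes. It moved those between treated cells and iECDCs to 1707 to 7001 genes, 2 to 5 members and 7 to 26 pathway genes, and those between treated cells and pECDCs to 2453 to 9188 genes, 1 to 4 members and 7 to 36 pathway genes. Such fits have fewer samples, and why calls rose without iECDC replicate 3 or treated replicate 2 was not tested beyond their distance from their group. The replicate numbers are shared by the groups, and deviations of same-numbered libraries correlated at -0.2065 to 0.0329. These values gave no sign that the numbers pair the samples, but 3 libraries per group are too few to exclude it. With the replicate block, 1791, 3038 and 3886 genes, 1, 3 and 3 members and 8, 14 and 17 pathway genes were called in the 3 comparisons, and Notch1 was the member lost (adjusted p = 0.0564 and 0.0522). The block also ended calls of Adam10, Adam17 and Cir1 between iECDCs and pECDCs, of Hes6 between treated cells and iECDCs, and of Tle3 and Dtx2 between treated cells and pECDCs. Depth limits Dll1, Hey1, Hey2, Heyl and Nrarp, whose differences were not detectable with the filter.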
